A study of Mus musculus with 14 samples.

Results

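When round spermatids form after meiosis, they start to express a large set of genes for the acrosome, the flagellum, the sperm head and the packaging of DNA. The genes described here are those that were switched on at this step in wild-type (WT) mice. They were chosen from the RNA values alone, as autosomal genes whose mean reached 20 FPKM (fragments per kilobase per megaread) in WT round spermatids and at least 20 times the mean level of WT spermatocytes. Of 20626 genes in the table, 19725 were autosomal and 468 met the rule. H3K36me3, trimethylation of lysine 36 of histone H3, was then read over the interval of each gene from its start to its end. In WT round spermatids 104 of the 468 intervals overlapped an H3K36me3 peak by at least 1 base and 364 did not.

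Testes came from adult C57BL/6J mice that were WT or labelled Setd2KO, and the labels do not say how, in which cells or in which exons Setd2 was removed. Flow sorting on a Hoechst dye and propidium iodide gave 2 populations, spermatocytes in pachytene and diplotene (PD), and round spermatids (RS). RNA-seq of polyadenylated RNA had 2 libraries in each of 4 groups, PD WT, PD Setd2KO, RS WT and RS Setd2KO. H3K36me3 ChIP-seq had 1 peak list per group, so no difference between peak lists has a replicate check. Whether both libraries of a group came from different animals is not stated, so the p-values given here measure only how far these libraries spread, which may be technical variation.

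Setd2 is the methyltransferase that trimethylates H3K36, and it travels with elongating RNA polymerase II, so the mark lies mainly over the bodies of transcribed genes. Spermatids are known for genes that are transcribed in a burst while histones are being replaced, first by transition proteins and then by protamines, and for storing their mRNA for later translation. Many of these genes are short, lack introns or have only a few, and many have promoters with few CpG dinucleotides.

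The stretch just before the start of the gene is shown for 5 highly expressed genes with and without an RS WT peak. They were chosen after their letters were seen, to show genes that hold ACAATG and genes that do not, so they are no sample of the set. Each is the 200 bases upstream of the start given by RefSeq in build GRCm38.p6, on the gene's strand, with capitals marking the letters ACAATG, the core of sites bound by SOX factors, or their reverse complement CATTGT.
Tnp1 (chr1:73015900-73016099, minus strand), no RS WT peak: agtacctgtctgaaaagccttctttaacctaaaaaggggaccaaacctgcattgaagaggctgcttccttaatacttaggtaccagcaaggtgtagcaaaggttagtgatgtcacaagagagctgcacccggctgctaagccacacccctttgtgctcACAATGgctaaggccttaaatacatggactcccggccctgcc
Cypt12 (chr3:17948244-17948443, plus strand), no RS WT peak: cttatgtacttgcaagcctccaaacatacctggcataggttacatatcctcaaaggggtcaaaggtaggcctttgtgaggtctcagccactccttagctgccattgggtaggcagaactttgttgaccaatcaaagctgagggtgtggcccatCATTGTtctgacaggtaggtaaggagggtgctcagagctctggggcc
Spz1 (chr13:92576233-92576432, minus strand), RS WT peak over the whole gene: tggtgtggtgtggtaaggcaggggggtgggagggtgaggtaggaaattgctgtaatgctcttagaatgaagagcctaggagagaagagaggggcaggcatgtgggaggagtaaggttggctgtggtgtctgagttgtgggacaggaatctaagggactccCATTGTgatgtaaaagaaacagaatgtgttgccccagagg
Prm1 (chr16:10796824-10797023, minus strand), RS WT peak over the whole gene: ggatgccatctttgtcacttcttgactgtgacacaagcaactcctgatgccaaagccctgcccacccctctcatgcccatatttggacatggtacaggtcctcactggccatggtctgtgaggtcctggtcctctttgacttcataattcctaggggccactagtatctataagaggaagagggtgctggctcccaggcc
Tnp2 (chr16:10788656-10788855, minus strand), RS WT peak over a small end of the gene: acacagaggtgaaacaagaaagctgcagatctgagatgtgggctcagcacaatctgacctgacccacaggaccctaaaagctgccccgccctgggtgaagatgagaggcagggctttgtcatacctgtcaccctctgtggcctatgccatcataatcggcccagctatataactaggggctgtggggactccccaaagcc
In these 200 bases Prm1, Cypt12 and Spz1 held 0 CpG dinucleotides and Tnp1 and Tnp2 held 2 each.

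RefSeq promoters, running from 250 bases before to 50 bases after the start, were found for 349 of the 468 genes, 84 with and 265 without an RS WT peak. Their median ratio of observed to expected CpG was 0.19, against 0.81 for the promoters of 1613 other autosomal genes with at least 20 FPKM in RS WT. A ratio under 0.4 was found in 72.2% of the switched-on genes, 12.8% of the other genes and 51.0% of all 27025 promoters in the table. The share was 65.5% for switched-on genes with a peak and 74.3% for those without. ACAATG on either strand was held by 28.4% of the switched-on promoters, 8.74% of the other genes at this level and 12.8% of all promoters. Among promoters with a CpG ratio under 0.4 the shares were 30.6%, 19.9% and 18.7%, so the gap to the other genes was smaller at like CpG content. ACAATG was held by 23.8% of promoters with a peak and 29.8% of those without. The letters GTTGCC, part of the site of RFX factors, was held by 20.6% of switched-on and 19.0% of other promoters, and by 12.7% of all. The cyclic AMP response element TGACGTCA was held by 3.72% and 3.91%, and by 1.88% of all. The shorter core TGACG, which the full element contains, was held by 17.2% and 36.3%, and by 21.0% of all. The TATA box letters TATAAA were held by 8.88% and 7.32%, and by 14.2% of all. With a CpG ratio under 0.4 (252 switched-on and 206 other promoters), TGACG was held by 7.54% and 8.74%. Its gap was thus smaller at like CpG content, and the letters TGACG themselves hold a CpG. The order turned for TGACGTCA (1.19% and 0%), GTTGCC (20.2% and 23.3%) and TATAAA (10.7% and 14.6%). For TGACGTCA this rests on 3 and 0 promoters. These are matches of letters in a window, both strands searched, and show no binding.

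The libraries held 50.8 to 84.9 megareads, worked back from the FPKM values of single-exon olfactory receptor genes, of which 99.2% to 100% gave whole reads within 0.01. A single read in 1 kb equals 0.0118 to 0.0197 FPKM, far below every level given here. Setd2 itself read 5.24 and 5.58 FPKM in the RS WT libraries, 12.1 and 8.67 FPKM in RS Setd2KO, 21.2 and 19.1 FPKM in PD WT, and 21.03 and 21.4 FPKM in PD Setd2KO. A value over a whole gene does not check a deletion of part of it, so genotypes are as labelled. Of 11 round spermatid markers, 10 were among the 468 genes, among them Acrv1, Spaca1 and Izumo1, so the label of the set matches its markers by the way it was chosen.

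The 468 genes lay on all 19 autosomes, with 10 to 44 on each, and 67 lay within 50 kb of another of them. Their median level was 59.2 and 56.9 FPKM in the RS WT libraries and 1.26 and 1.69 FPKM in the PD WT libraries, and the median ratio of RS WT to PD WT was 42.6. These levels chose the genes and are a description. Tmem243, a membrane protein, was the gene nearest to the level threshold from inside, at 20.2 FPKM, followed among named genes by Amotl1, and Atl3 (20.0 FPKM), Myo5b (20.0 FPKM) and Tnrc18 (19.9 FPKM) stood just outside. At the threshold of the ratio Tuba4a (20.2), Fscn3 (20.3) and Ace (20.48) stood just inside, and Stpg1 (19.9) and Fam110a (19.5) just outside. A further 49 genes on the X and Y chromosomes met both thresholds and were left out by the rule. None of those 49 had an RS WT peak, and the exact 95% interval for 0 of 49 reaches 7.25%.

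H3K36me3 peaks were rare over the switched-on genes compared with other genes at the same level. An RS WT peak lay over 22.2% of them (104 of 468, exact 95% binomial interval 18.5% to 26.3%, counting error only). Among 2035 other autosomal genes with at least 20 FPKM in RS WT it lay over 90.4% (1839 genes, 89.0% to 91.6%), and among all autosomal genes over 45.0%. Autosomal genes under 1 FPKM in RS WT had a peak in 19.0% of cases. In bases the gap was larger, with 2.63% of the summed length of the switched-on genes under a peak against 63.7% for the other genes. With 1 list there is no test between groups, and the depth of the ChIP libraries is unknown.

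The share with a peak was lower in bins of a higher ratio of RS WT to PD WT. It was 92.5% for genes at a ratio of 1 to 2, 80.4% at 5 to 10, 90.9% at 10 to 15 and 61.3% at 15 to 20. Inside the rule it was 46.9% at 20 to 25, 43.1% at 25 to 30, 21.6% at 30 to 40, 16.4% at 40 to 50 and 15.2% at 50 or more. The bin of 15 to 20 held 31 genes and that of 20 to 25 held 32, with exact intervals of 42.2% to 78.2% and 29.1% to 65.3%, so these neighbours in the order overlap. The median log2 change in RS Setd2KO in the same bins was 0.00 at a ratio of 1 to 2, -0.39 at 5 to 10, -0.35 at 10 to 15, -0.50 at 15 to 20, -0.55 at 20 to 25, -0.64 at 25 to 30, -0.58 at 30 to 40, -0.49 at 40 to 50 and -0.56 at 50 or more, so it did not fall steadily. The ratio and the change share the RS WT values, so these medians are a description.

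**Figure D1:**
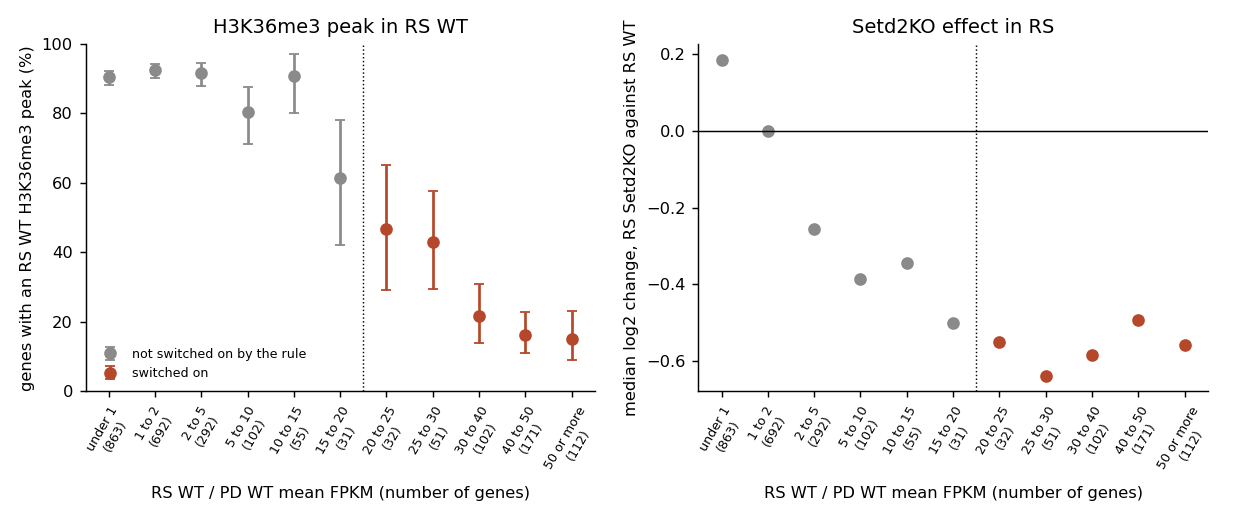
Left, share of autosomal genes at 20 FPKM or more in RS WT that had an RS WT H3K36me3 peak (%, points, with exact 95% binomial intervals as bars) in bins of the ratio of RS WT to PD WT mean FPKM, with the number of genes under each bin. Right, median log2 change in RS Setd2KO against RS WT in the same bins, a description, since both axes use the RS WT values. The dotted line is the threshold of 20, and the share drops from 92.5% at a ratio of 1 to 2 to 15.2% at 50 or more.

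Most of the switched-on genes had no peak before the switch either. A PD WT peak lay over 78 of them (16.7%), against 94.6% of the other genes. The rule holds PD WT low in the switched-on genes, so this gap is a description. The median of the mean PD WT level was 1.52 FPKM for them and 39.7 FPKM for the other genes. A PD WT peak lay over 46.4% of all autosomal genes and 19.5% of autosomal genes under 1 FPKM in RS WT. Among the switched-on genes both cell types had a peak over 66, PD WT alone over 12, RS WT alone over 38 and neither over 352. So 66 of the 104 genes with a peak in RS WT already had one in PD WT. The 38 genes with a peak in RS WT alone included Gsg1, which encodes a testis membrane protein, Spata20, the acrosomal antigen gene Acrv1 and the ubiquitin ligase gene Rnf151. Tssk5, a testis kinase gene, and Klhl10, which encodes a substrate adaptor of a spermatid ubiquitin ligase, were among the 12 with a peak in PD WT alone.

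Genes with a peak were somewhat shorter. The median length of the interval was 7970.5 bases with a peak (quartiles 3493 and 20820) and 10468 bases without (3006 and 29145), against 17846 bases for the other genes of at least 20 FPKM. The ranges overlapped almost wholly, from 407 to 256344 bases with a peak and from 476 to 535814 bases without. At each length the share with a peak was far below that of the other genes. It was 22.9% under 5 kb, 23.4% at 5 to 10 kb, 28.0% at 10 to 20 kb, 21.7% at 20 to 50 kb and 11.7% at 50 kb or more (7 of 60 genes), and for the other genes it ran from 86.5% to 93.7%. Where at least 50% of the interval had to be covered, the ratio of median lengths with and without moved from 0.761 to 0.301, and among genes whose peaks reach no other expressed gene it turned to 1.26, so the direction of the length difference depended on how a peak was counted.

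Genes with a peak were also at higher levels. The median of the mean RS WT level was 80.5 FPKM with a peak (quartiles 42.6 and 161) and 55.2 FPKM without (34.8 and 95.6). The share with a peak was 17.8% at 20 to 50 FPKM, 18.9% at 50 to 100, 25% at 100 to 200 and 58.1% (18 of 31 genes) at 200 or more, while for the other genes it stayed between 89.1% and 90.6%. The level difference lay among short genes, with medians of 124 FPKM with a peak and 50.8 FPKM without under 5 kb, and it turned at 10 to 20 kb, where the medians were 47.1 and 60.7 FPKM.

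**Figure D2:**
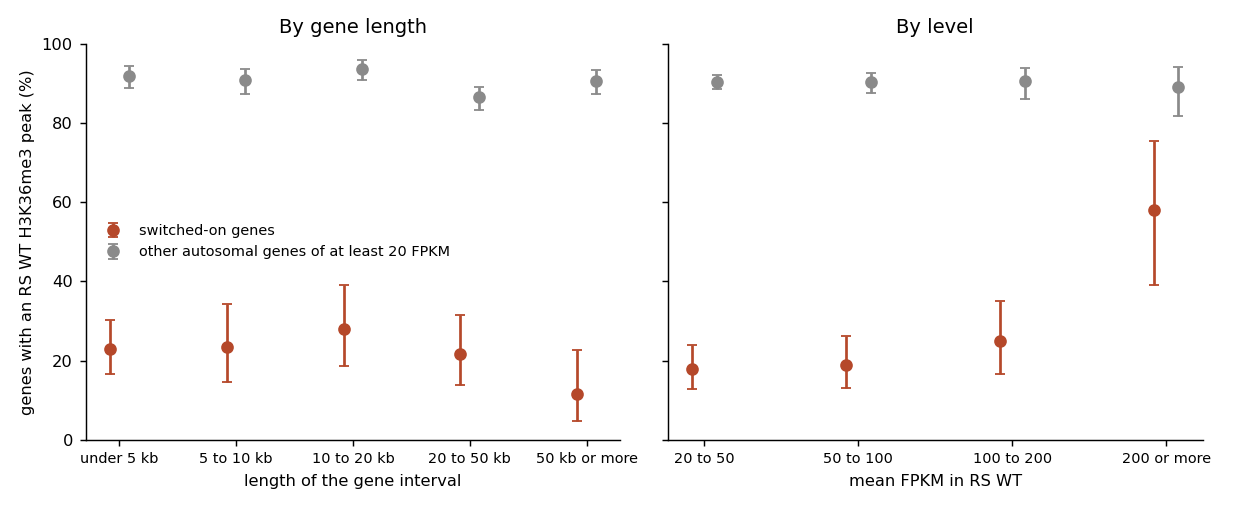
Share of genes with an RS WT H3K36me3 peak (%, points, with exact 95% binomial intervals as bars) by length of the gene interval (left) and by mean RS WT level in FPKM (right), for the 468 switched-on genes and 2035 other autosomal genes of at least 20 FPKM. Switched-on genes lie below the other genes in every bin, and come nearest at 200 FPKM or more, with 58.1% against 89.1%.

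Even where a peak was present, it rarely covered the gene as in other expressed genes. Of the 104 genes 19 lay wholly under peaks, 43 were covered by 50% or more and 26 by under 10%. The median cover was 37.5%, against 94.5% for the other genes with a peak, and the median of the highest peak score, which is the authors' value, was 298 against 765. For 50 of the 104 (48.1%) the peak ran on into another gene of at least 1 FPKM in RS WT, against 28.5% of the other genes with a peak. The interval itself overlapped another gene of the table for 13 genes with a peak and 29 without. The 364 genes without a peak were a median of 34375.5 bases from the nearest RS WT peak (quartiles 9578 and 116573). Of these 30 lay within 2 kb of one and 151 over 50 kb away.

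Along switched-on genes with a peak, cover was highest at the end. Over the 68 of them that were 5 kb or longer, the mean share of bases under an RS WT peak was 25.5% in the first of 10 bins, 26.2% to 32.7% in bins 2 to 8, 38.7% in bin 9 and 45.1% in the last. In PD WT it was 7.52% in the first bin and 28.6% in the last. The other genes, with and without a peak, did not have this shape in RS WT. Their cover there was 67.9% in the first bin, 74.8% to 76.7% in bins 2 to 9 and 72.5% in the last. In PD WT, however, their cover was also highest at the end, with 63.4% in the first bin, 79.3% in bin 3 and 82.0% in the last.

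**Figure D3:**
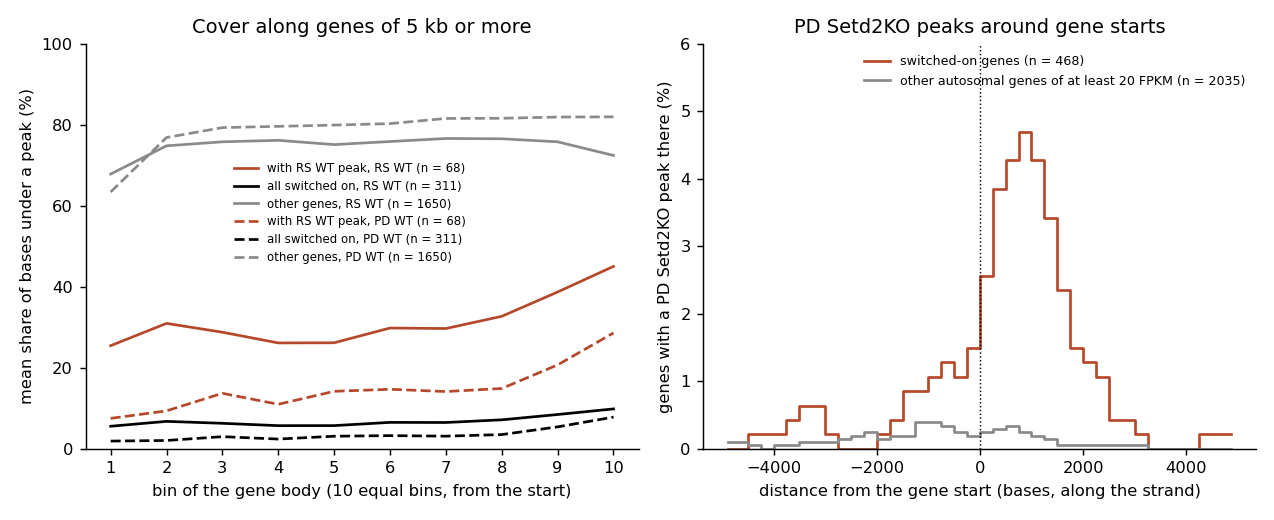
Left, mean share of bases under an H3K36me3 peak (%) in each of 10 bins of the gene body for genes of 5 kb or more, RS WT as solid and PD WT as dashed lines; all 311 switched-on genes stay at 9.85% or less in RS WT. Right, share of genes (%) touched by a PD Setd2KO peak in windows of 250 bases around the gene start; the switched-on genes peak at 4.70% between 750 and 1000 bases after the start.

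Many of these genes were lower in Setd2KO round spermatids, and the shares called lower were close with and without the mark. Of the 468 genes 222 were lower and 4 higher in RS Setd2KO (limma, Benjamini-Hochberg adjusted p under 0.05 over 11452 tested genes), which is 47.4% lower, beside 21.8% of all tested genes lower and 20.9% higher. All 468 passed the filter on low values through RS WT by the rule. Among genes with a peak 49 of 104 fell (47.1%) and 1 rose, and among genes without a peak 173 of 364 fell (47.5%) and 3 rose. The 4 genes that rose are known by model or clone numbers only. The number lower was 115 without the first RS Setd2KO library and 136 without the first RS WT library.

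The median log2 change was -0.54 over the 468 genes, -0.58 (quartiles -0.83 and -0.39) with a peak and -0.52 (quartiles -0.83 and -0.27) without, against 0.02 for the other genes of at least 20 FPKM and 0.02 for all tested genes. The quartiles of both classes overlap almost wholly, and the difference of their medians, -0.05, turned to 0.16 at 5 to 10 kb and 0.11 at 10 to 20 kb. With a peak, the median level was 80.2 and 76.9 FPKM in the RS WT libraries and 46.5 and 64.0 FPKM in the RS Setd2KO libraries. Without a peak, it was 56.6 and 53.6 FPKM in RS WT and 30.8 and 41.5 FPKM in RS Setd2KO. Both classes stood lower in each Setd2KO library than in each WT library, and lower in the first Setd2KO library than in the second. Both Setd2KO libraries were below both WT libraries for 367 genes (78.4%, beside 37.7% of all tested genes) and above both for 12 genes (beside 40.4%). Counted this way the classes stood further apart, with 93 of 104 genes below both with a peak (89.4%) and 274 of 364 without (75.3%).

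The rule asks for a high level in the same RS WT libraries that the change is measured against. The genes were therefore also chosen on 1 WT library of each cell type and compared with the RS WT library not used. The first libraries chose 468 genes and the second 466. This covers only the spread between the 2 libraries, which may be technical, and no other pull of the selection. The median log2 change was then -0.54 against the second and -0.56 against the first RS WT library. Without the 12 genes on the list of markers of elongating and condensing spermatids it was -0.52, with 213 genes lower. Of the 49 X and Y genes, which had no RS WT peak, 5 were lower, 8 higher and 36 did not pass, with a median of 0.17. Several of those that were higher, such as Slxl1, Tgif2lx1 and Tgif2lx2, are multicopy genes with close copies, between which reads can be split. The largest rise was in Fam122c (log2 change 1.12, limma adjusted p = 0.00338), and Ribc1 also rose (0.53, 0.0495). Neither is among the multicopy genes named here. Whether read splitting had a part in these rises was not tested.

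**Figure D4:**
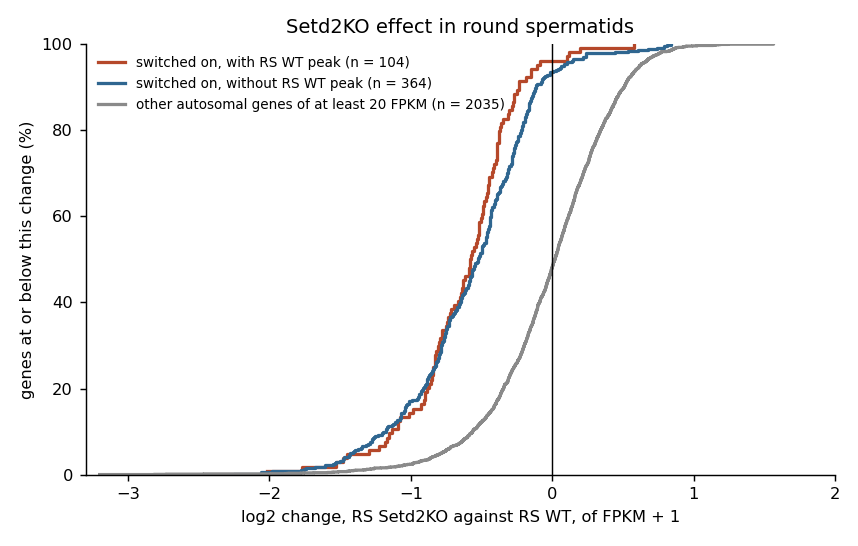
Cumulative share of genes (%) against their log2 change in FPKM + 1 between RS Setd2KO and RS WT, for switched-on genes with (n = 104) and without (n = 364) an RS WT peak and for 2035 other autosomal genes of at least 20 FPKM. The lines of both switched-on classes run together, with medians of -0.58 and -0.52, to the left of the other genes.

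**Figure D5:**
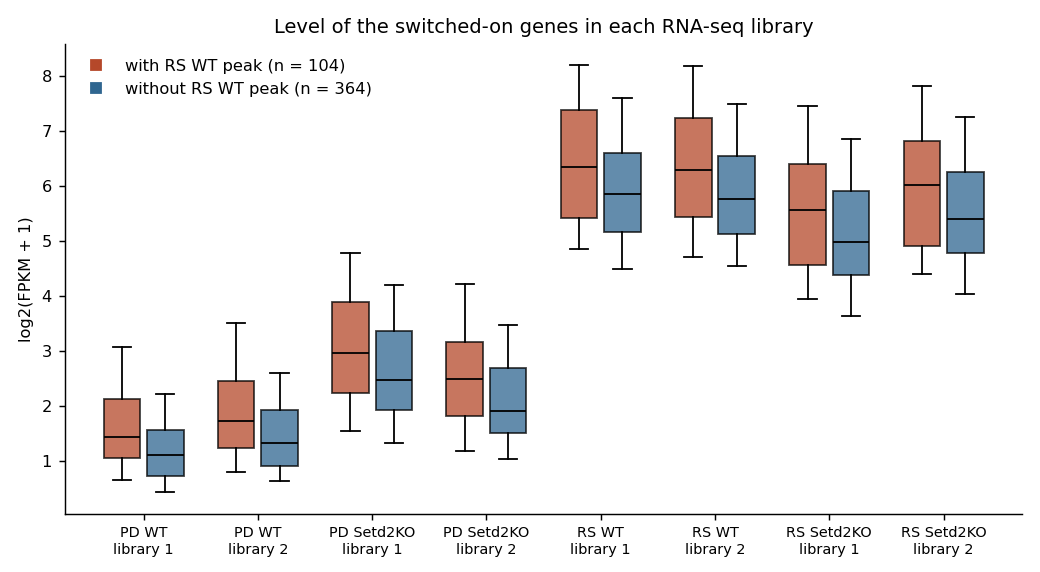
Level of the 468 switched-on genes in each of the 8 RNA-seq libraries as log2(FPKM + 1), for genes with and without an RS WT peak; boxes show the median and quartiles and whiskers the percentiles 5 and 95. Levels in PD Setd2KO are above PD WT and levels in RS Setd2KO below RS WT in both classes.

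The 2 Setd2KO libraries of a cell type differed in the same direction for nearly all of these genes. The first RS Setd2KO library was below the second for 455 of the 468 genes (97.2%), against 57.5% of all tested genes. The first PD Setd2KO library was above the second for 464 genes (99.1%), against 38.1%. Summed marker levels of other cells also differed between RS WT and RS Setd2KO. The summed level of 16 markers of elongating and condensing spermatids was 6568 and 6604 FPKM in RS WT and 2859 and 3115 FPKM in RS Setd2KO, but 12 of these 16 are among the 468 genes. Over the 4 others it was 1981 and 2187 against 1241 and 1318 FPKM. Most of that gap was Prm2, at 847 and 1013 against 244 and 222 FPKM, while Odf2 stood at 724 and 786 against 752 and 780 FPKM. Prm2 reached the level threshold and was left out of the set only by the ratio, with 57.7 and 38.5 FPKM in PD WT. Odf2, with 318 and 430 FPKM in PD WT, was the only one of these 4 markers far from the rule. Akap4 (210 and 223 against 104 and 135 FPKM) and Tsga8 (200 and 164 against 141 and 181 FPKM) met both thresholds. They were left out of the set only as X-linked genes. For 15 markers of spermatocytes outside the set the sum was 621 and 637 against 867 and 808 FPKM. Much of that rise was Hspa2, at 276 and 328 against 444 and 421 FPKM. Of the 14 of them tested, 5 were called higher and 1 lower, beside 20.9% and 21.8% of all tested genes. The sum of 9 Sertoli cell markers was 5.52 and 7.30 against 15.2 and 13.2 FPKM, and of 5 peritubular myoid markers 2.18 and 3.29 against 10.7 and 9.68 FPKM. Sums of the markers of spermatogonia, Leydig cells, macrophages, and erythrocytes and endothelium lay between 1.92 and 14.7 FPKM in every RS library, and no marker was at 0 in all of them. In bulk samples fewer cells of a stage and less RNA per cell cannot be told apart, and the part of these shifts in the result was not tested.

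Every one of these genes was also higher in round spermatids than in spermatocytes of Setd2KO mice. All 468 genes were higher in RS Setd2KO than in PD Setd2KO (limma, adjusted p under 0.05), beside 34.2% of all tested genes higher and 48.5% lower. The median log2 change was 3.003, with 2.99 for genes with a peak and 3.01 for those without, and the median of all genes was -0.27. The median ratio of RS to PD was 9.71 in Setd2KO, and no autosomal gene met the rule of 20 FPKM and 20 times there. The rule fixed the ratio in WT and not in Setd2KO, so the lower ratio is a description with no test. Beside the lower RS level stood a higher PD level, with medians of 5.14 and 3.13 FPKM in PD Setd2KO against 1.26 and 1.69 FPKM in PD WT. In PD 401 genes were called higher and 4 lower (beside 29.8% and 6.3% of all tested genes), but the rule holds PD WT low, so this count is a description. In the same PD libraries the summed level of the 11 round spermatid markers was 78.1 and 94.8 FPKM in WT and 211 and 131 FPKM in Setd2KO, while Acr, the marker outside the set, was 45.0 and 48.1 against 34.6 and 34.6 FPKM. Their part in the PD level was not tested.

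Genes for DNA packaging had some of the largest falls, with and without the mark. Tnp1 (mm9 chromosome 1, 73061649 to 73062473), a transition protein gene whose nearest RS WT peak was 114346 bases away, stood at 1067 and 948 FPKM in the RS WT libraries, against 302 and 283 FPKM in RS Setd2KO. Tnp2 (chromosome 16, 10788028 to 10788748), with 6.52% of its length under an RS WT peak and all of it under a PD WT peak, stood at 1067 and 933 against 301 and 282 FPKM. Prm1 (chromosome 16, 10796425 to 10796916), the protamine gene wholly under peaks in both cell types, stood at 941 and 912 against 238 and 219 FPKM. The RS WT peak over Prm1 also reached another expressed gene. The 3 genes have promoters with few CpG, as printed above, and in each the WT and Setd2KO libraries were far apart. The log2 changes were -1.78 (SE 0.19, limma adjusted p = 4.58e-05), -1.77 (SE 0.19, 3.82e-05) and -2.02 (SE 0.18, 1.19e-05).

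The lists below are counted over their autosomal genes found in the table. Their counts stand beside 22.2% with a peak and 47.4% lower over all 468 genes, and 21.8% lower over all tested genes. Many are near these shares, and no list was tested against them. Of 8 protamine and transition protein genes 6 were switched-on genes, 4 of them with a peak, and 5 fell. H1fnt, a spermatid linker histone, had no peak and fell from 161 and 141 to 69.8 and 88.9 FPKM (log2 change -0.93, limma adjusted p = 0.00167). Hils1, another spermatid linker histone, lay wholly under a peak that also reached other expressed genes. Its level was 344 and 298 FPKM in the WT libraries against 215 and 274 FPKM in Setd2KO, groups that did not overlap but did not pass the test (log2 change -0.40, adjusted p = 0.223). Prm2 was not among the 468 genes. Of 22 genes for histone variants and histone removal 6 were switched on and 4 fell, among them the H2A variant gene H2afb1, which had no peak and went from 53.5 and 48.0 to 20.9 and 22.8 FPKM.

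The acrosome list held the most switched-on genes, 24 of 42, 6 of them with a peak, 9 lower and 0 higher. The acrosomal membrane gene Spaca1, 21754 bases long with the nearest RS WT peak 263001 bases away, stood at 194 and 180 FPKM in WT and 158 and 200.2 FPKM in Setd2KO, so its groups overlapped (log2 change -0.07, limma adjusted p = 0.855). Acrv1 had 42.0% of its length under a peak and stood at 238 and 182 against 116 and 154 FPKM (log2 change -0.63, adjusted p = 0.0656). Spaca3 and Fam209, without and with a peak, both had log2 changes of -0.31 and did not pass. Of 34 genes for binding and fusion with the egg 15 were switched on, 1 with a peak and 9 lower. Pdilt, a testis chaperone of sperm surface proteins, had no peak over 36896 bases and went from 151 and 117 to 41.4 and 62.2 FPKM (log2 change -1.37, adjusted p = 0.00218). Izumo1, the sperm protein that binds its egg receptor, went from 82.4 and 76.5 to 39.7 and 51.0 FPKM (-0.81, 0.0134), and Zp3r from 153 and 113 to 66.0 and 89.6 FPKM (-0.77, 0.0269). Both calls were lost without the first RS Setd2KO library (adjusted p = 0.108 and 0.192) and without the first RS WT library (0.0861 and 0.206).

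Of 49 flagellum and sheath genes 17 were switched on, 6 with a peak and 7 lower. Odf1, the outer dense fibre gene, had no peak and went from 279 and 291 to 141 and 187 FPKM (log2 change -0.80, limma adjusted p = 0.013). Oaz3, the testis antizyme gene, lay wholly under peaks in both WT cell types and went from 390 and 389 to 179 and 241 FPKM (-0.90, 0.00619). Tppp2, which binds tubulin, had no peak and went from 40.1 and 42.8 to 9.11 and 9.19 FPKM (-2.06, 2.57e-06). Ropn1, a fibrous sheath gene of 27400 bases with no peak, stood at 271 and 230.4 against 147 and 210 FPKM and did not pass (-0.51, 0.156). Of 25 glycolysis and energy genes 4 were switched on and 1 fell, the sperm sodium pump gene Atp1a4, without a peak (-0.88, 0.00698). Gapdhs, the sperm glyceraldehyde dehydrogenase, had 79.5% of its length under peaks and did not pass (-0.65, 0.0847). Without the first RS Setd2KO library the calls of Odf1 (adjusted p = 0.122), Oaz3 (0.0739) and Atp1a4 (0.0713) were lost, and that of Odf1 also without either RS WT library (0.0595 and 0.0685). Without the first RS WT library Gapdhs passed (0.0444).

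None of the 7 switched-on genes among 23 for CatSper and sperm ion transport had a peak, and 3 fell. Catsper1, a pore subunit of the sperm calcium channel, went from 62.9 and 65.2 to 21.6 and 41.5 FPKM (log2 change -1.07, limma adjusted p = 0.00475), while Catsper4 (-0.46, 0.119), Kcnu1, the sperm potassium channel (-0.32, 0.174), and Tmem225 (-0.21, 0.579) did not pass. Among 20 testis kinases and phosphatases 7 were switched on, 3 with a peak and 2 lower. Tssk1 and Tssk2, kinase genes that lie next to each other under 1 RS WT peak, did not pass (-0.42, 0.168 and -0.39, 0.196). Tssk5, a kinase gene without an RS WT peak, went from 36.2 and 32.9 to 6.93 and 13.0 FPKM (-1.75, 0.000105).

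Head shaping and manchette genes had 14 of 31 switched on, 5 with a peak and 10 lower. Kif2b, a kinesin gene of 2270 bases with the nearest RS WT peak 925896 bases away, stood at 253 and 259 against 185 and 251 FPKM (log2 change -0.25, limma adjusted p = 0.453). Spag4, which codes for a protein of the nuclear envelope, had 83.0% of its length under a peak (-0.54, 0.0763), and Actl7a, an actin-like gene, had no peak (-0.59, 0.0806). Of 33 regulators of post-meiotic transcription and mRNA storage only Fhl5, Kif17 and Sox5 were switched on. Fhl5, a partner of the activator CREM, and Kif17, a kinesin that moves such a partner, had small stretches under a peak and fell (-0.74, 0.0368 and -0.58, 0.0294). Sox5, a SOX factor gene of 381144 bases, had no RS WT peak and stood at 24.5 and 22.6 against 18.4 and 23.6 FPKM (-0.17, 0.49). Of 28 ubiquitin and proteasome genes 7 were switched on, 2 with a peak and 2 lower. Klhl10 (-0.44, 0.176) and Rnf151 (-0.62, 0.0869) did not pass, and Asb17, without a peak, fell (-0.66, 0.0145). The calls of Fhl5 (adjusted p = 0.247), Kif17 (0.259) and Asb17 (0.131) were lost without the first RS Setd2KO library. They were also lost without the first RS WT library (0.180, 0.133 and 0.0975), and those of Fhl5 and Kif17 without the second (0.0857 and 0.0909). Spag4 passed without the second RS Setd2KO library (0.0438).

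Outside these lists, the largest falls among genes with a peak included Slfnl1, from 76.7 and 65.4 to 20.8 and 27.3 FPKM (log2 change -1.53, limma adjusted p = 3.71e-05). The scaffold gene Pdzk1 went from 58.1 and 58.6 to 16.3 and 25.2 FPKM (-1.48, 0.000178), and the transporter gene Slc35g3 from 57.6 and 52.7 to 15.6 and 24.4 FPKM (-1.45, 9.61e-05). Tsks, which encodes a substrate of the testis kinases, went from 168 and 143 to 51.4 and 76.4 FPKM (-1.29, 0.000425). Among genes without a peak the largest falls included Znrf4, a ring finger gene, from 154 and 108 to 33.1 and 21.1 FPKM (-2.24, 0.00048), the ankyrin gene Ank2, from 27.8 and 27.8 to 4.78 and 8.16 FPKM (-1.98, 1.69e-05), and the smooth muscle actin gene Actg2, from 74.98 and 77.1 to 22.3 and 21.8 FPKM (-1.74, 4.37e-06). The rule that named these 7 genes asked for both Setd2KO libraries below both WT libraries, so that order was fixed by the choice.

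The longest genes carried little of the mark. Dpf3, which encodes a chromatin remodelling subunit, was 458689 bases long with no RS WT peak and stood at 20.4 and 20.9 FPKM in WT and 26.2 and 30.8 FPKM in Setd2KO, which did not pass (log2 change 0.44, limma adjusted p = 0.0703). Tln2, the talin gene, was 342619 bases long with no peak and fell (-0.56, 0.0259), and Fam135b, 282161 bases long, did not pass (-0.16, 0.57). Among the longest with a peak, Pknox2 (256344 bases) had 0.567% of its length covered, Bbx (240546 bases) 2.18% and Gpd2 (132338 bases) 5.86%, and none of these 3 passed the test (log2 changes -0.41, -0.27 and -0.58). Without the first RS Setd2KO library the call of Tln2 was lost (adjusted p = 0.208), as without either RS WT library (0.0926 and 0.116), and without the second RS Setd2KO library Pknox2 passed (0.00524). Across all 468 genes the change was nearer to 0 in longer genes, with a Spearman rho of 0.23 between length and log2 change (Pearson r 0.23, across genes of the same libraries, a description without a p). The median change was -0.59 under 5 kb and -0.33 at 50 kb or more.

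Some of the smallest genes lay wholly under a peak. Spz1, a transcription factor gene of 1601 bases, was wholly covered in PD WT and RS WT by a peak that reached no other expressed gene in RS WT, and fell from 288 and 289 to 160 and 214 FPKM (log2 change -0.64, limma adjusted p = 0.035). Cypt9 and Cypt10, genes of cysteine-rich nuclear proteins, share 1 interval and a peak with another gene, so the same stretch is counted once for each. Their values (both -0.83, 0.0182 and 0.0184) are uncertain and not independent, since both are read from that interval. Tex33, of unknown function, and Irgc1, an interferon-inducible GTPase family gene, stood at 382 and 349 and at 318 and 266 FPKM in RS WT with no peak. Irgc1 fell (-0.88, 0.00764) and Tex33 did not pass (-0.40, 0.284). Allc, Nt5c1b and Stard10, each over 20 kb with no peak, stood at 187 FPKM or more in every RS WT library and did not pass (-0.65, 0.0517; -0.46, 0.155; -0.44, 0.121). The calls of Spz1, Cypt9, Cypt10 and Irgc1 were lost without the first RS Setd2KO library (adjusted p = 0.255, 0.115, 0.116 and 0.0784) and without the first RS WT library (0.127, 0.128, 0.128 and 0.0715), that of Spz1 also without the second RS WT library (0.119), and Allc passed without the second RS Setd2KO library (0.0328).

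The Setd2KO peak lists touched few of these genes, but the PD list touched them more often than others. A PD Setd2KO peak lay over 40 of the 468 genes (8.55%, exact 95% interval 6.18% to 11.5%) against 25 of 2035 other genes (1.23%, 0.797% to 1.81%) and 2.01% of all autosomal genes. These 44 peaks had a median width of 741.5 bases, against 587 for the whole list, and a median score of 61.5, against 55.6 for the whole list, whose lowest score is 50. Their centres were a median of 1083.5 bases from the gene start and 33 lay within 2 kb of it. A peak within 1 kb of the start was found for 7.05% of the switched-on genes and 0.835% of the others, a setting chosen after seeing the data. The highest score, 187, was over Kif2b (chromosome 11, 91436826 to 91438765). Next came Fam170b (103), Tmco5 (98.0) and Ace (95.7), a peptidase with a promoter for its testis form inside the gene, the first 2 named after their values were seen. Of the 40 genes 6 had an RS WT peak. In RS Setd2KO 28 peaks lay over 19 genes (4.06%, against 3.14% of the others and 5.43% of all autosomal genes). None was centred within 1 kb of a start.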

How the data were processed

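RNA-seq values were used as the authors deposited them, in FPKM, made with CASAVA, TopHat2, Cufflinks and Cuffdiff on build mm9 per the submitters' processing notes, versions not given. Libraries were directional and polyadenylated, per the labels' protocols. The H3K36me3 lists hold 1 score per peak, which the authors deposited with a lowest value of 50; MACS names stand in the file, and CASAVA, Bowtie and bedtools in the submitters' processing notes. The labels' protocols name a chromatin spike-in, but its use in the lists is not given in the sources used here. Input libraries were not analysed here.

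The tables were joined by gene symbol, since they list genes in different orders. Intervals differed between tables for 6 of the 468 genes. Genes whose mean reached 1 FPKM in any group were kept (11452), and log2(FPKM + 1) was fitted with limma 3.58.1 (R 4.3.3) with an intensity trend and 1 mean for each of the 4 groups, 4 residual and 6.923 prior degrees of freedom, and p-values were Benjamini-Hochberg adjusted over all tested genes. The fold change is on the log2(FPKM + 1) scale. The script was tested on simulated data. Overlap is at least 1 base, and shares carry exact 95% binomial intervals (scipy 1.17.1). RefSeq promoters, matched by symbol, are of GRCm38.p6, another build than the peaks, and their coordinates were not set against them.

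Genes were named by rule: Prm1, Prm2, Tnp1, Tnp2 and Acrbp where switched on; in each peak class the 5 highest, the 5 longest and the 6 largest changes per direction that passed with both Setd2KO libraries beyond both WT libraries; long genes without and short genes with a peak, up to 5 each; up to 4 genes of each list; and the 3 nearest each threshold. Genes known only by a clone or model number are not printed. The genes, lists, markers and rule were chosen with earlier results of these data known. Alternatives covered pseudocounts, filters, scaling, replicates left out, the replicate block, peak scores, overlap, length and the thresholds of the rule.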

Additional observations from a re-analysis of the deposited data

How the results depend on the processing

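The number of switched-on genes lower in RS Setd2KO was 222 and ranged from 115 (without the first Setd2KO library) to 258 (without the second) when 1 library was left out, and the median log2 change from -0.74 to -0.34. It was 347 of 722 genes with the rule at 10 FPKM and 10 times and 28 of 60 with the rule at 50. The number higher was 4. It was 2 with no filter, 2 with a pseudocount of 0.1, 8 with a pseudocount of 5, 9 with only the 2 groups fitted, 12 with the rule at 10 and 0 with the rule at 50, and 0 to 3 with 1 library left out. For RS against PD in Setd2KO all genes stayed higher at every setting, 722 with the rule at 10 and 60 with the rule at 50, and the median was 2.26 with a pseudocount of 5.

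The share of switched-on genes with an RS WT peak was 16.7% where 10% of the interval had to be covered, 9.19% at 50%, 28.6% with intervals widened by 2 kb and 29.6% with the rule at 10. For the other genes it was 88.2%, 78.7% and 92.8% in the first 3 of these, and 86.6% with scores of at least 100. With the rule at 50 it was 77.9%, but there the other genes are all those of at least 50 FPKM outside that rule. They include switched-on genes at a ratio of 20 to 50. Among the 2035 other genes the share was 90.4% at 50 to 100 FPKM, 90.6% at 100 to 200 and 89.1% at 200 or more. The ratio of median lengths, with over without a peak, was 0.301 at 50% cover, 1.28 with the rule at 10, 0.295 with the rule at 50 and 1.26 where peaks reach no other gene of 1 FPKM. The ratio of median levels was 2.41 at 50% cover, 2.44 under 5 kb and 0.777 at 10 to 20 kb, and 1.42 to 1.44 with 1 WT library left out. The difference of median changes was 0.019 with the rule at 10, 0.16 with the rule at 50, 0.16 at 5 to 10 kb and 0.11 at 10 to 20 kb, and -0.065 to -0.0034 with 1 library left out. ACAATG was held by 19.9% of the other promoters with a CpG ratio under 0.4. The cause of these moves was not tested, apart from the number of genes the rule admits and the switched-on genes counted among the others with the rule at 50. No gene met the rule in Setd2KO, so choosing genes there gave no value.

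Replicate numbers did not pair the libraries (correlations of deviations -0.309 to 0.068). With the replicate block 208 genes were lower and 3 higher in RS Setd2KO, and 468 were higher in RS against PD. With the 2 RS Setd2KO numbers exchanged the counts were 216 and 3. Of 70 genes followed one by one, calls were weaker in 44 and stronger in 31 of the fits and the sign turned in 5, all without the first RS Setd2KO library and none of them called. With 1 library left out Sox5 ran from -0.34 to 0.0034, Fam135b from -0.42 to 0.10, Spaca1 from -0.24 to 0.10, Tmem243 from -0.30 to 0.0010 and Amotl1 from -0.44 to 0.027. The 2 libraries per group and 1 peak list per group limit every comparison.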
